A study of Mus musculus with 12 samples.

Results

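The immunity-related GTPases described here are 6 mouse genes, Igtp, Irgm1, Irgm2, Iigp1, Tgtp1 and Tgtp2, taken by name and matched to the Ensembl identifiers of the count tables without the version suffix. They are 6 of the 48526 genes listed, and all 6 had enough counts to be tested in every comparison. RNA came from intestinal epithelial cells of 4 female mice aged 3 months. The sample titles call these cells whole intestine epithelium, and the protocol in the labels says that they were taken from the proximal part of the small intestine with EDTA. In 2 animals Kat2a and Kat2b, a pair of related lysine acetyltransferase genes, were deleted by tamoxifen at 100 mg/kg, injected into the peritoneum on 4 successive days (DKO). The 2 control animals received only the solvent, 10% ethanol in 90% corn oil, and all tissue was taken 2 days after treatment ended. Genotype and tamoxifen therefore changed together and cannot be told apart. Each animal gave 1 input library of unselected RNA and 1 library each of RNA pulled down with J2 and with K1, antibodies that bind double-stranded RNA. The labels used here do not name the Cre driver or the floxed alleles.

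Immunity-related GTPases are large GTP-binding proteins that interferons induce in mouse cells, where they defend a cell from microbes that live inside membrane-bound vacuoles. Effector members such as Iigp1 (also called Irga6) and Tgtp (Irgb6) gather on the vacuole and break it open. Regulatory members, Irgm1, Irgm2 and Igtp (also called Irgm3), sit on the cell's own membranes and hold the effectors inactive there. The conjugation machinery of autophagy, which attaches ubiquitin-like proteins to membranes, helps direct both classes. Interferons act on the promoters of their target genes through short DNA elements, among them the GAS element and repeats of GAAA that interferon regulatory factors bind.

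The genes other than Iigp1 lie on chromosome 11 (GRCm38, GENCODE M21). Irgm1 (ENSMUSG00000046879.6) spans 48861968 to 48871683 on the minus strand, and Tgtp1 (ENSMUSG00000078922.9) and Tgtp2 (ENSMUSG00000078921.3) follow on the same strand at 48985327 to 48994172 and 49057194 to 49064206. Igtp (ENSMUSG00000078853.8, 58199556 to 58207591) and Irgm2 (ENSMUSG00000069874.7, 58199618 to 58222782) lie over each other on the plus strand and share 162 exonic bases, 8.01% of the Igtp exons and 4.39% of the Irgm2 exons. All 6 members are protein-coding, and the counts are of reads over their exons. The Tgtp pair is nearly a duplicate. Counting aligned stretches of 100 bases or more that were 97% identical or better, 100% of the longest Tgtp2 transcript matched Tgtp1 and 99.6% of the longest Tgtp1 transcript matched Tgtp2. Their counts, and how they divide between the pair, are therefore uncertain.

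Because the genes share an inducer, the 250 bases before each RefSeq gene start are shown for the 5 members with an entry (RefSeq, GRCm38.p6, all on chromosome 11, 5′ to 3′ on the gene's strand). Capitals mark matches to the GAS letters TTCNNNGAA or to an interferon-response core GAAANNGAA, searched on both strands.
Igtp (58199306 to 58199555): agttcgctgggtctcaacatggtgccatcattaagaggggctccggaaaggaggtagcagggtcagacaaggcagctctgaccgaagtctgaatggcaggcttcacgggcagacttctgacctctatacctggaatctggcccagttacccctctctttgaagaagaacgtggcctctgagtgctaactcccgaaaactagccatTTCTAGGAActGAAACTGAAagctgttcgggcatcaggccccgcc
Irgm2 (58214727 to 58214976): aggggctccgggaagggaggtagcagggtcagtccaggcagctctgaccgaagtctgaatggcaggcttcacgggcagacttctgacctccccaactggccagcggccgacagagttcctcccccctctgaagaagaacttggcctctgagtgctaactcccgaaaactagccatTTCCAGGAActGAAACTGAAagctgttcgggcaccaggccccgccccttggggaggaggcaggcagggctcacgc
Tgtp1 (48992247 to 48992496): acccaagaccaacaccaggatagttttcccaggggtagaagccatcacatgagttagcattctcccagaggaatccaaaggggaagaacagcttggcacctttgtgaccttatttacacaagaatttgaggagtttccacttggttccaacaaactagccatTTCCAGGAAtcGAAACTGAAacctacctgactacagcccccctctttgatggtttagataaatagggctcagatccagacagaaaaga
Tgtp2 (49064213 to 49064462): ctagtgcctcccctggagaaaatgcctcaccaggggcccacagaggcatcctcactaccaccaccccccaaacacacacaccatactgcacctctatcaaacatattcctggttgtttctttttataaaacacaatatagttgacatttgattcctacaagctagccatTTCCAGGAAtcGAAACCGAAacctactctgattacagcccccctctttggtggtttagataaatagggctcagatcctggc
Irgm1 (48871421 to 48871670): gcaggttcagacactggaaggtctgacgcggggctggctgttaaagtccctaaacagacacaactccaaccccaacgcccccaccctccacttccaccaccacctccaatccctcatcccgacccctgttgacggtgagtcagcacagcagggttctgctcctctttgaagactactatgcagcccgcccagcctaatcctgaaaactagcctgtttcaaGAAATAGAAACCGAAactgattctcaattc

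Igtp, Irgm2, Tgtp1 and Tgtp2 each held a GAS match followed, after 2 bases, by an interferon-response core on the coding strand. The GAS match began 45 bases before the start of Igtp, 75 before Irgm2, 88 before Tgtp1 and 81 before Tgtp2. Its letters were TTCTAGGAA in Igtp and TTCCAGGAA in the other 3 genes. Irgm1 had no GAS match and 2 overlapping cores, which began 30 and 24 bases before the start. GAS letters occurred in 7.02% of the 32851 RefSeq windows of this length, the core in 7.13% and both in 0.752%. The fixed spacing, which was looked for after the 4 sequences had been seen, occurred in 7 windows (0.0213%): those 4 genes, the family gene Gm12185, Olfr382 and LOC115488470. Over the whole window the Igtp and Irgm2 sequences were 68.9% identical and the Tgtp pair 62.6%, while the other pairs of members ranged from 46.1% to 55.4%. A match is a description of letters and not a binding site. RefSeq starts differ from GENCODE starts for some genes, and the windows of Irgm2, Tgtp1 and Irgm1 lie inside the GENCODE spans given above.

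**Figure D1:**
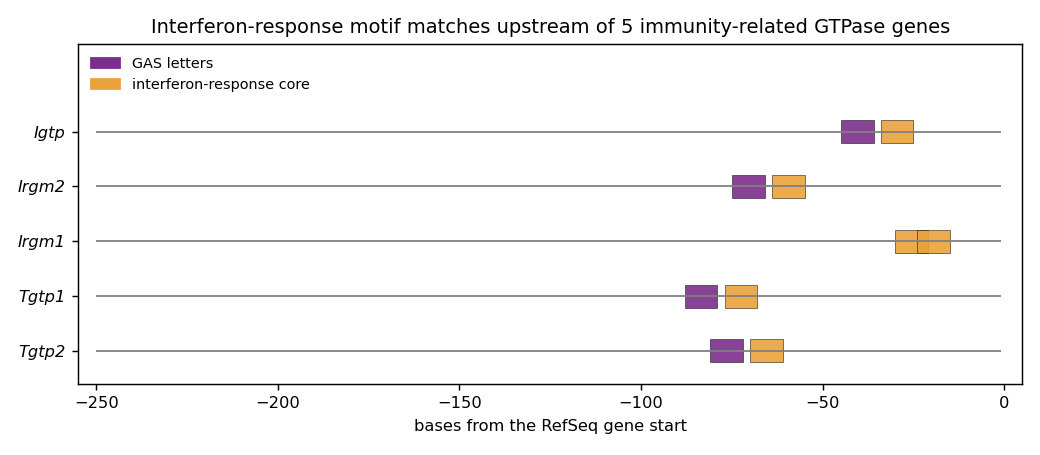
Matches to the GAS letters (purple) and to the interferon-response core (orange) in the 250 bases before the RefSeq start of 5 immunity-related GTPase genes; the x axis is the distance from the start in bases. In Igtp, Irgm2, Tgtp1 and Tgtp2 the purple and orange matches sit side by side with the same 2-base gap, and Irgm1 has 2 overlapping orange matches.

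The libraries held 2220291 to 16139531 gene counts each. The 4 input libraries were even in depth (10307281 to 11474107), whereas the 4 DKO pulldowns (2220291 to 5826361) were shallower than the 4 control pulldowns (13308021 to 16139531). Reads aligned to several places made up 15.8% to 46.7% of the reads in DKO pulldowns and 5.54% to 8.05% elsewhere. The targeted genes were lower in DKO input, Kat2b by a log2 fold change of -1.51 (edgeR adjusted p 6.32e-04) and Kat2a by -0.88 (edgeR adjusted p 0.0205). All 10 epithelial markers were detected in every group, with a summed level of 8324 to 8539 CPM in control input and 7316 to 8769 in DKO input. The 16 leukocyte markers summed to 143 to 144 CPM in control input and 92.7 to 111 in DKO input. Of the 12 leukocyte markers tested in input, edgeR called 2 higher and 6 lower, against 18.8% and 17.1% of all genes. DESeq2 called 5 of the 12, against 27.5% of all genes. The largest called change was in the macrophage receptor gene Csf1r (log2 fold change 2.74) and the smallest in the intraepithelial lymphocyte integrin Itgae (-0.60). The 5 others called lower ranged from -1.12 (Cd3g) to -0.63 (Gzma), both genes of lymphocytes. These were named after their values were seen. The 8 markers of fibroblasts and endothelium summed to 2.15 to 7.0 CPM in input, but to 3.21 to 41.1 in control pulldowns and 33.3 to 208 in DKO pulldowns. The part of these markers in the results below was not tested. In bulk RNA a change in the number of expressing cells and a change in RNA per cell cannot be told apart.

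Regulatory members had the highest counted levels of the 6 in control epithelium, and effectors the lowest. For Tgtp1 and Tgtp2 these levels may understate abundance, because reads aligned to several places are left out. Per kilobase of exon, Igtp stood at 22.8 ± 19.1 CPM per kb in control input (SD, n = 2), Irgm2 at 12.2 ± 7.87 and Irgm1 at 3.90 ± 2.12. Tgtp2 followed at 0.989 ± 0.670, Tgtp1 at 0.206 ± 0.165 and Iigp1 at 0.0937 ± 0.080. In this order Igtp overlapped Irgm2 and Tgtp1 overlapped Iigp1, and the other neighbours did not overlap. In DKO input the order was Igtp (49.3 ± 25.2 CPM per kb), Irgm2 (27.2 ± 4.81), Irgm1 (20.9 ± 6.08), Iigp1 (3.36 ± 1.79), Tgtp2 (2.98 ± 0.961) and Tgtp1 (0.834 ± 0.109). There Irgm2 overlapped Irgm1 and Iigp1 overlapped Tgtp2. Iigp1 thus moved from the sixth place to the fourth, and Irgm1 came within the range of Irgm2. The order depends on the length used, which merges the exons of all transcripts (5810 bases for Irgm1, 5823 for Iigp1). Their longest transcripts have 3832 and 3121 bases, and the order by transcript length was not tested. The levels of Tgtp1 and Tgtp2 rest on the few reads that tell them apart.

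In input RNA 5 of the 6 members were higher in DKO than in control and past the threshold: Iigp1, Irgm1, Tgtp1, Tgtp2 and Irgm2. Over all 15088 genes tested, 35.9% were called and 18.8% were called higher, so calls were common in this comparison. Without TMM scaling the share called higher was 14.2% of genes tested, and 42.1% of the calls in place of 52.4%. The members' median log2 fold change was 1.85, beside -0.00 for all genes tested. The CPM of the 2 genotypes did not overlap for the same 5 genes, which holds in the same direction for 33.8% of the 16582 genes kept in the 12 libraries.

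Iigp1, the vacuole-attacking effector, showed the largest change of the 6. The gene (ENSMUSG00000054072.11) lies on the plus strand of chromosome 18 at 60376027 to 60392634. It had 11 and 3 counts in the control input libraries (0.875 and 0.216 CPM) and 323 and 166 in DKO (26.9 and 12.2 CPM). Each DKO library exceeded both controls, the lower one by 13.9-fold. DKO was higher by 5.21 on the log2 scale (SE 0.58, edgeR adjusted p 6.92e-04), rank 85 of the genes tested. Irgm1, a regulator that also acts in autophagy and mitochondrial upkeep, had 394 and 193 counts in control (31.4 and 13.9 CPM) and 1757 and 1313 in DKO (147 and 96.5 CPM). The lower DKO value was 3.08 times the higher control value, a log2 difference of 2.47 (SE 0.36, edgeR adjusted p 0.00213).

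Irgm2 and Igtp, the overlapping pair of regulators, changed least. Irgm2 had 824 and 340 counts in control (65.6 and 24.5 CPM) and 1353 and 1193 in DKO (113 and 87.7 CPM). The groups did not overlap and differed by 1.20 in log2 terms (SE 0.39, edgeR adjusted p 0.0468). Igtp had 922 and 261 counts in control (73.4 and 18.8 CPM) and 1627 and 867 in DKO (136 and 63.7 CPM). The lower DKO animal lay under the higher control animal, and the log2 fold change of 1.15 did not pass (SE 0.57, edgeR adjusted p 0.156). The effector pair had lower counts. Tgtp1 had 13 and 4 counts in control against 35 and 33 in DKO, a log2 fold change of 2.07 (SE 0.49, edgeR adjusted p 0.0148). Tgtp2 had 54 and 21 against 129 and 92, a log2 fold change of 1.64 (SE 0.45, edgeR adjusted p 0.0255). Summed over the pair, the level was 5.33 and 1.80 CPM in control input and 13.7 and 9.19 in DKO, which is free of how reads divide between the 2 genes but not of reads lost to both.

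The 2 animals of a genotype differed from each other across the whole group. In input, J2 and K1 alike, all 6 members were higher in control animal 1 than in control animal 2. In input the difference was 1.16 (Irgm1) to 1.95 (Igtp) on the log2 CPM scale, at least 2-fold for each of the 6, whereas 1.58% of the 16582 genes kept were at least 2-fold higher in that animal. In J2 all 6 members differed by at least 2-fold, against 2.17% of genes, and in K1 5 members did, against 2.33% of genes. In DKO input all 6 members were likewise higher in DKO animal 1, by 0.25 (Tgtp1) to 1.13 (Iigp1), with Igtp (1.09) and Iigp1 at least 2-fold apart, against 2.34% of genes. In DKO J2 and K1 4 of the 6 were higher in DKO animal 1. The size of each genotype difference therefore depended on the animals. Without control animal 1 the input log2 fold changes were 6.46 for Iigp1, 3.15 for Irgm1, 2.06 for Irgm2, 3.20 for Tgtp1, 2.55 for Tgtp2 and 2.43 for Igtp. Without control animal 2 they were 4.49, 1.98, 0.64, 1.39, 1.05 and 0.47 in the same order. The call of Tgtp1 did not hold then, and the share of all genes called fell as well. Without DKO animal 1 the calls of Irgm2 (1.01), Tgtp1 (1.94) and Tgtp2 (1.29) did not hold, and the share of all genes called also fell. Without DKO animal 2 the call of Irgm2 (1.36) did not hold, although the share of all genes called rose. With all animals kept, Irgm2 was not called by DESeq2 (1.20, adjusted p 0.195) or without TMM scaling (1.05, edgeR adjusted p 0.0697). This left 4 of the 6 called in each, beside 27.5% and 33.6% of all genes.

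**Figure D2:**
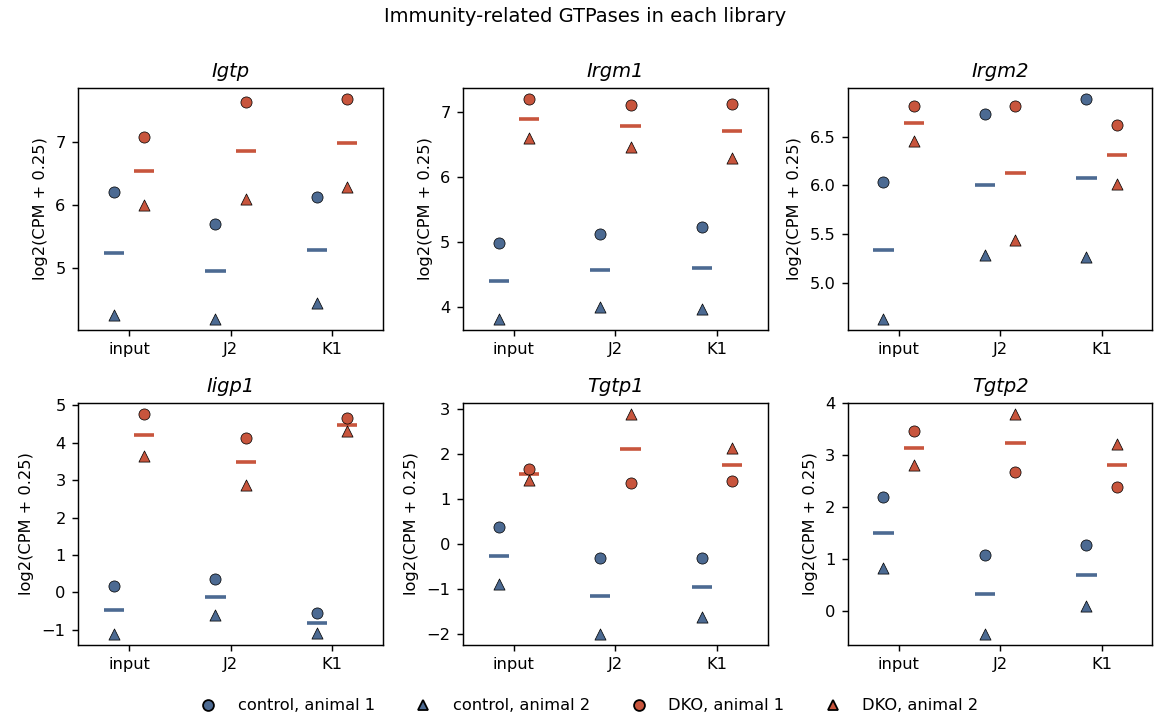
Level of each immunity-related GTPase, as log2(CPM + 0.25), in the 12 libraries by kind of library (x axis); blue is control, red is DKO, circles are animal 1 and triangles animal 2 of each genotype, and bars are group means. Control circles lie above control triangles in all 6 panels and all 3 kinds of library, and the 2 colours overlap for Igtp in input and for Irgm2 in J2 and K1.

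Within the pulldowns the genotypes were compared in the same way. In K1 libraries 4 of the 6 members were higher in DKO and called, against 27.1% of 12888 genes called and 13.2% called higher. Without TMM scaling 8.91% of genes were called higher, and 27.4% of the calls in place of 48.6%. DESeq2 called 5 of the 6 in K1, against 25.1% of all genes. Iigp1 had 7 and 3 counts in control and 105 and 43 in DKO, a log2 fold change of 6.18 (SE 0.48, edgeR adjusted p 0.00168). Irgm1 had 607 and 207 counts against 586 and 173 in the shallower DKO libraries, or 37.4 and 15.4 CPM against 139 and 78.3. This was a log2 difference of 2.21 (SE 0.46, edgeR adjusted p 0.0146). Tgtp1 (3.36, edgeR adjusted p 0.0284) and Tgtp2 (2.37, edgeR adjusted p 0.0359) passed on counts of at most 10 and 35 in a library. Igtp, at 1.79, did not pass (edgeR adjusted p 0.0635), with 69.3 and 21.3 CPM in control and 205 and 77.4 in DKO. Without control animal 2 the calls of Irgm1 (1.67), Tgtp1 (2.63) and Tgtp2 (1.84) did not hold. Without control animal 1 those of Tgtp1 (5.28) and Tgtp2 (3.25) did not, and Igtp stood at 2.88. The share of all genes called fell as well in both fits. Without DKO animal 2 Igtp stood at 2.32.

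In J2 libraries, where the DKO replicates were farther apart than in any other group, 2 of the 6 were called, both higher: Iigp1 (log2 fold change 4.06, SE 0.72, edgeR adjusted p 0.0347) and Irgm1 (2.20, SE 0.50, edgeR adjusted p 0.0485). Of the 13181 genes tested 12.2% were called, 6.02% as higher, or 3.38% as higher without TMM scaling (32.7% of the calls in place of 49.4%). DESeq2 called 5 of the 6 in J2, against 21.9% of all genes. Iigp1 had 15 and 5 counts in control and 67 and 23 in DKO. Irgm1 stood at 34.7 and 15.9 CPM in control and at 138 and 88.2 in DKO. Tgtp1 (8 and 0 counts in control, 9 and 23 in DKO), Tgtp2 (27 and 6, 24 and 44) and Igtp (750 and 222, 782 and 220) had log2 fold changes of 4.02, 3.12 and 1.96 and did not pass (edgeR adjusted p 0.0793, 0.0654 and 0.116). With either control animal left out, neither call in J2 held, and the share of all genes called fell as well. Iigp1 was 4.83 without control animal 1 and 3.51 without control animal 2, and Irgm1 was 2.83 and 1.68. With any 1 animal left out, 1 group held a single library, and the spread came from the other genotype's pair alone. How many genes were called then depended on the pair kept, among all genes as well as the members.

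Irgm2 was the member whose pulldown levels hardly differed between genotypes. In J2 it stood at 106 and 38.6 CPM in control and at 112 and 43.2 in DKO, a log2 fold change of 0.13 (SE 0.64, edgeR adjusted p 0.903). In K1 it stood at 118 and 38.2 CPM in control and at 98.1 and 64.3 in DKO, a log2 fold change of 0.23 (SE 0.50, edgeR adjusted p 0.767). The genotypes overlapped in both kinds of pulldown, and the sign of the change turned in 4 of 12 alternative settings for J2 and in 3 for K1. A missed threshold does not show that the levels were equal.

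**Figure D3:**
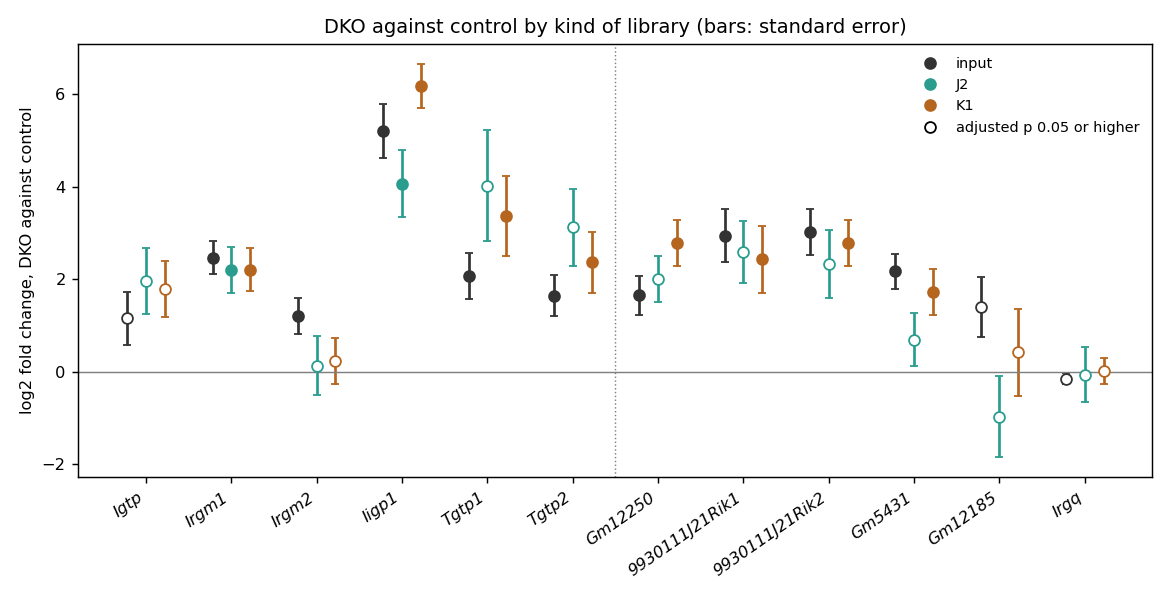
Log2 fold change of DKO against control (y axis, bars are the standard error) for the 6 members, left of the dotted line, and 6 other genes of the family, in input (black), J2 (green) and K1 (brown); filled points have an edgeR adjusted p under 0.05. Iigp1 reaches 4.06 to 6.18, Irgm2 falls from 1.20 in input to 0.13 and 0.23 in the pulldowns, and Irgq stays near 0.

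Enrichment was then followed within each animal, as the log2 CPM of a pulldown minus that of the same animal's input. For Irgm2 it was 0.69 and 0.65 in the control animals and -0.00 and -1.02 in the DKO animals with J2. With K1 it was 0.85 and 0.64 against -0.20 and -0.45. Both DKO animals therefore lay below both control animals with each antibody. Such an order was common: of the 16582 genes kept, 32.7% were separated this way with J2 and 37.1% with K1, and 27.5% and 20.9% were separated in the opposite direction. In scaled levels, Irgm2 went from 65.6 and 24.5 CPM in control input to 118 and 38.2 in control K1, and from 113 and 87.7 CPM in DKO input to 98.1 and 64.3 in DKO K1. Irgm1 showed the same order at a smaller size, 0.15 and 0.19 against -0.08 and -0.13 with J2 and 0.25 and 0.15 against -0.07 and -0.30 with K1. Igtp went the other way, -0.51 and -0.07 against 0.55 and 0.09 with J2 and -0.08 and 0.18 against 0.59 and 0.28 with K1. Iigp1 was 0.19 and 0.54 against -0.65 and -0.77 with J2, while its K1 values overlapped. Its control values rest on few counts, 11 and 3 in input, 15 and 5 in J2 and 7 and 3 in K1. In DKO animal 2 the Tgtp pair had positive values with both antibodies, 1.48 (Tgtp1) and 0.98 (Tgtp2) with J2 and 0.70 and 0.41 with K1. These rest on 23 and 44 pulldown counts with J2 and 9 and 20 with K1, for 2 genes that share nearly all their sequence. In DKO animal 1 all 4 values were negative, from -1.08 to -0.28.

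No member passed the edgeR test of enrichment when samples were treated as unpaired, in any of 6 comparisons, and none had an unadjusted p under 0.05 or was called by DESeq2. The share of all genes called was 29.8% for J2 against input in control, 25.7% for J2 in DKO, 39.8% for K1 in control and 35.6% for K1 in DKO. For the change of enrichment between genotypes it was 2.71% with J2 and 5.47% with K1. The 3 libraries of an animal carry the same animal label, so the fit was repeated with the animal as a block (paired, 2 residual degrees of freedom). Irgm2 was then the 1 member called, in K1 against input in control (log2 0.67, SE 0.20, edgeR adjusted p 0.0132, against 0.298 unpaired) and in the change of K1 enrichment (-1.07, SE 0.29, edgeR adjusted p 0.0252, against 0.412 unpaired). All 4 animals showed that order, as they did for 37.1% of genes. All genes together had a median change of K1 enrichment of -0.21 in that fit, and 19.4% of genes had a more negative change than Irgm2. With J2 the paired change of Irgm2 was -1.15 (SE 0.44, edgeR adjusted p 0.166). With the block the share of all genes called was 28.2% and 21.3% for J2 against input in control and DKO, 45.8% and 39.8% for K1, 0% for the change of J2 enrichment and 12% for the change of K1 enrichment. Leaving out any of the 4 animals from the unpaired fit left the change for Irgm2 with K1 negative, from -1.32 to -0.96, and uncalled. After every library was thinned to 2220291 counts it was -0.96 (edgeR adjusted p 0.674).

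**Figure D4:**
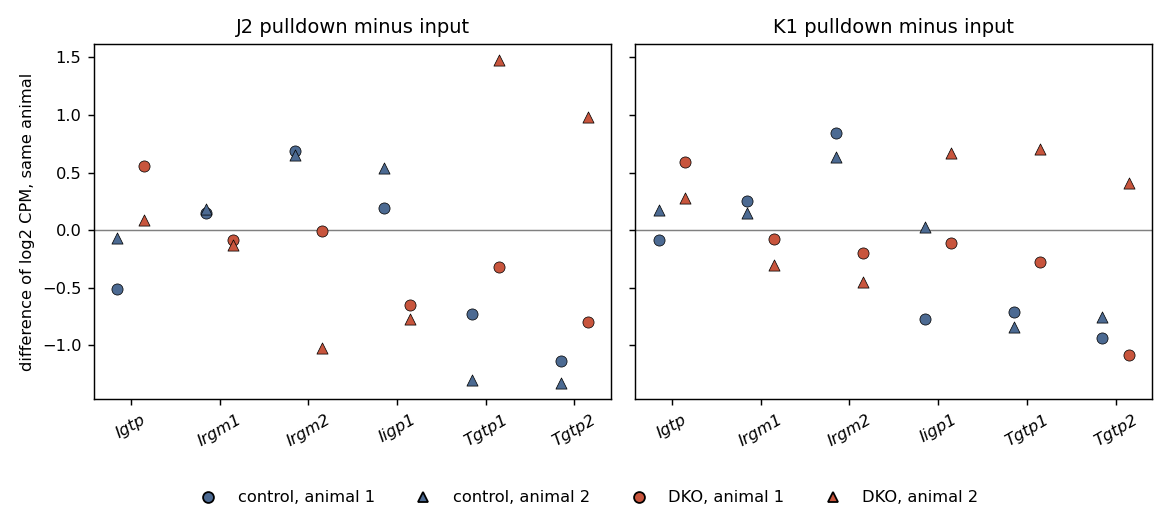
Pulldown minus input of the same animal, as a difference of log2 CPM (y axis), for the 6 members with J2 (left) and K1 (right); blue is control, red is DKO, circles are animal 1 and triangles animal 2. For Irgm2 both control points lie between 0.64 and 0.85 and both DKO points lie between -1.02 and -0.00.

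Across the 12 libraries the members did not all follow one profile. Tgtp1 and Tgtp2, which share nearly all their sequence, had a Pearson r of 0.986 between their log2 CPM, Irgm1 and Iigp1 0.958 and Igtp and Irgm1 0.916. The lowest were Irgm2 with Tgtp1 (0.419), Tgtp2 (0.429) and Iigp1 (0.538). These values describe 12 libraries that come from 4 animals and 2 genotypes. Among 9375 other genes with a mean of at least 50 counts, the 8 closest to the members' mean profile were Gbp7 (r 0.971), H2-Q6 (0.969), Zbp1 (0.969), H2-Q7 (0.965), Oasl2 (0.963), Mlkl (0.962), Cxcl10 (0.961) and Nos2 (0.961). Genes with symbols of the Gm or Rik kind, which include other genes of the family, could not enter these 8. Gbp7 encodes a guanylate-binding protein, and H2-Q6 and H2-Q7 encode nonclassical MHC class I molecules. Zbp1 senses Z-form nucleic acid, Mlkl carries out necroptosis, Cxcl10 is a chemokine that interferon induces, and Nos2 makes nitric oxide.

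Other genes of the family were read from a list of 11, of which 6 had enough counts to test. In input, where 35.9% of all genes were called, 4 of the 6 were, all higher: 9930111J21Rik2 (log2 fold change 3.03), 9930111J21Rik1 (2.94), Gm5431 (2.17) and Gm12250 (1.65, edgeR adjusted p 0.0199). The same 4 were called in K1 (27.1% of all genes). In J2 (12.2% of all genes) 0 of 6 were by edgeR, although 3 had an unadjusted p under 0.05, with Gm12250 at 2.00 (edgeR adjusted p 0.0550). DESeq2 called 3 of the 6 in input, 4 in K1 and 3 in J2, against 27.5%, 25.1% and 21.9% of all genes. Gm12185, which holds the paired motifs and overlaps Tgtp1 by 223 exonic bases, had a log2 fold change of 1.40 in input that did not pass (edgeR adjusted p 0.130). Neither motif was found in the promoter windows of 9930111J21Rik2, 9930111J21Rik1, Gm5431 and Irgq, and Gm12250 held both without the fixed spacing. Irgq, a divergent family member, was chosen for mention after its values were seen. It had 340 and 389 counts in control input and 292 and 325 in DKO, a log2 fold change of -0.15 (SE 0.12, edgeR adjusted p 0.366). In J2 and K1 it stood at -0.06 and 0.01 (edgeR adjusted p 0.949 and 0.985).

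Guanylate-binding proteins, the larger interferon-induced GTPases that join immunity-related GTPases on vacuoles, were higher as a group. Of 11 listed genes 8 were tested, and in input all 8 were called higher by edgeR, against 18.8% of all genes, with a median log2 fold change of 3.03. DESeq2 called 7 of the 8 in input and 7 in J2, against 27.5% and 21.9% of all genes. Gbp3 had 16 and 16 counts in control input and 729 and 576 in DKO, a log2 fold change of 5.44 (SE 0.26, edgeR adjusted p 5.32e-05). Gbp5 (3.95), Gbp9 (3.39) and Gbp7 (3.10) followed, and Gbp4 was smallest at 1.42 (edgeR adjusted p 0.0357). In K1 7 of the 8 were called higher and in J2 4 were, against 13.2% and 6.02% of all genes. The 1 not called in K1 was Gbp6, which rose in input by 1.92 (edgeR adjusted p 0.0492) and stood at -0.35 in K1 (edgeR adjusted p 0.758) and 0.19 in J2 (edgeR adjusted p 0.872). With the animal as block its change of K1 enrichment was -2.51 (SE 0.56, edgeR adjusted p 0.0104, against 0.235 unpaired), on 12 and 4 counts in DKO K1. All 5 guanylate-binding protein genes with a promoter window held the interferon-response core, Gbp5 and Gbp7 also GAS letters, and none the fixed spacing of the 2 motifs.

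Genes that carry the interferon signal upstream moved unevenly. Of 17 receptor, kinase, transcription factor and feedback genes tested in input, 10 were called higher and 2 lower, against 18.8% and 17.1% of all genes, with a median log2 fold change of 0.68. The largest changes were in feedback inhibitors and in a transcription factor subunit: Usp18 (4.04), Socs3 (2.59), Socs1 (2.51) and Stat2 (2.18), and the smallest call was the kinase Jak1 (0.59, edgeR adjusted p 0.0122). Stat2 had 695 and 562 counts in control input and 2902 and 2466 in DKO. The 2 genes called lower were the transcription factors Irf1 (-0.78, edgeR adjusted p 0.00710) and Irf8 (-0.68, edgeR adjusted p 0.0261). Irf1 had 1944 and 1651 counts in control and 963 and 1024 in DKO. In K1 7 genes were called higher and 2 lower, against 13.2% and 13.9% of all genes, and in J2 5 were called, all higher, against 6.02%.

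Transcripts of the 4 interferon genes listed were near the limit of detection. Other interferon genes were not on this list. Ifnb1 had 0 counts in all 12 libraries, which allows at most 3 counts in each. Ifng had 2 counts in 1 control input library and 0 in the other 11. Ifnl2 and Ifnl3 had at most 3 counts in any library. No difference between genotypes was detectable for them at this depth.

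Genes of the conjugation machinery that directs the GTPases to membranes were tested as a further list. Of 10 tested in input, 4 were called by edgeR, all higher, beside 35.9% of all genes called, and the median log2 fold change was 0.32. DESeq2 called 2 of the 10 in input, beside 27.5% of all genes. Without regard to the test, 7 of the 10 had a negative value in J2 and 6 in K1. Gabarapl1, which encodes one of the ubiquitin-like proteins attached to membranes, had the largest called change at 1.15 (SE 0.20, edgeR adjusted p 0.00466), and the conjugating enzyme gene Atg3 the smallest at 0.39 (SE 0.12, edgeR adjusted p 0.0441). In K1, where 27.1% of all genes were called, 1 of the 10 was, Atg3 at 1.06 (edgeR adjusted p 0.0280), and in J2 0 of 10 were called by edgeR, with 3 at an unadjusted p under 0.05 and 2 called by DESeq2.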

How the data were processed

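Deposited values were whole-number read counts per gene, made by the authors without using strand, per the labels, in 1 file for each of 12 libraries. The submitters' processing notes name STAR 2.7.10b, SAMtools 1.17, UMI-tools 1.1.4 and HTSeq 2.0.2 and the builds mm10 and GRCm38.p4; how identifiers were used is not given in the sources used here. Reads aligned to several places lie outside the gene rows, which lowers counts of near-identical genes such as Tgtp1 and Tgtp2. Rows that name no gene were left out. They held 6.76% to 27.0% of reads outside genes, 3.65% to 6.11% ambiguous reads and 5.54% to 46.7% reads aligned to several places. Without strand, genes that overlap on opposite strands cannot be separated where they share bases. The members' overlaps, Igtp with Irgm2 and Tgtp1 with Gm12185, lie on the same strand and would not be separated by strand either.

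Tests on the counts used edgeR (version 4.0.16, R 4.3.3) with its quasi-likelihood method, TMM scaling (filterByExpr minimum 10, Benjamini-Hochberg 0.05 over all genes tested). Genotypes were compared separately in input, J2 and K1 (4 libraries each, 2 residual degrees of freedom), and enrichment in the 8 libraries of input and 1 antibody (4 degrees). CPM used TMM over 12 libraries, and log2 CPM a prior count of 2. Alternatives included DESeq2 1.42.0. The fits for input and for the change of K1 enrichment were run on simulated counts with the same spread for every gene and library. That run does not show how the tests perform at the spread seen here. P-values between genotypes rest on the spread between 2 animals a group, with the estimate shared in part over genes. The unpaired enrichment fits treated the libraries of an animal as independent and pooled the spread over their groups.

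Replicates differed by more than counting noise (chi-square per degree of freedom 9.78 or higher), so none was a duplicate. The deviations of libraries of the same animal correlated at 0.208 to 0.494, and the animal labels pair them within a genotype. Equal numbers in the 2 genotypes are different animals. Members and lists were chosen with earlier results of these data known. Named beside the members are the 8 genes nearest their mean profile, with Gm and Rik symbols excluded. From each list the called genes with the largest and smallest change are named (up to 4 of the largest for family, guanylate-binding and signalling genes). Transcripts were compared with blastn 2.17.0+. A few genes of the lists are not reported here by name.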

Additional observations from a re-analysis of the deposited data

Results flagged for a closer look

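The paired test of the difference between genotypes marked 1 result. The change of K1 enrichment for Irgm2 was -1.07 on the log2 scale with the animal as block, and it did not pass without the block. Pulldown minus input was 0.85 and 0.64 for the control animals, against -0.20 and -0.45 for the DKO animals, an order that 37.1% of genes showed. DKO K1 libraries were shallower and held more reads aligned to several places, and with all libraries thinned to equal counts the unpaired change was -0.96, against -1.10 at full depth. The part of the reads aligned to several places was not tested. Groups of 2 animals were too small to look for single outlying samples.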

How the results depend on the processing

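Over 12 alternative settings no called value changed sign. Iigp1 and Irgm1 in input and Iigp1 in K1 were called in every setting that tested them. In input, where 5 of 6 members were called, DESeq2 and no TMM each called 4, 1 fit of all 12 libraries called 2, counts thinned to 2220291 per library called 1, and leaving out 1 animal gave 2 to 6. In J2, where 2 were called, DESeq2 called 5, no filter on low counts 5, 1 fit of all libraries 4, no TMM 1, thinning 1 and the replicate block 5, and leaving out 1 animal gave 0 to 5. In K1, where 4 were called, thinning called 1 and leaving out 1 animal gave 1 to 5. For enrichment, with 0 called, no filter gave 1 for J2 and 2 for K1 against input in control, and the replicate block gave 1 for K1 against input in control and 1 for the change of K1. The block changed no other count of calls among the enrichment comparisons. Between genotypes a shared number is not a shared animal (correlation of deviations 0.026, -0.088 and -0.097). The cause of these shifts was not tested, except that thinning and leaving out animals leave fewer counts or samples. The share of all genes called moved too: in input from 35.9% to 10.1% (all libraries) or 11.5% (thinned); in J2 from 12.2% to between 1.33% and 59.0%; in K1 from 27.1% to between 9.03% and 41.5%; for the change of J2 enrichment from 2.71% to between 0% and 41.3%; and for the change of K1 from 5.47% to between 0% and 22.7%. For pulldown against input, leaving out a control animal gave 0% to 2.44% with J2 and 1.70% to 18.4% with K1, leaving out a DKO animal 42.1% to 60.5% and 29.4% to 56.0%, and thinning 4.21% to 11.1%. Without TMM the median of all genes moved to -0.13 in input, -0.39 in K1 and -0.44 for J2 against input in control. Shallow DKO pulldowns limit Tgtp1, with at most 23 counts there.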
